A study of Capra hircus with 3 samples.

Results

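The Fc receptors and myeloid cell markers of goat skin were read as a group of macrophage and mast cell transcripts. Members were all non-control probes whose gene name began with FCGR or FCER, or was LYZ, CD14, CD68, CD163, CSF1R, ITGAM, ITGB2 or TYROBP, or whose description named an Fc receptor, an Fc fragment or lysozyme. The rule found 18 probes of 11 genes among 15008 probes with 14314 gene names on the array, and 0 probes named CD68, CD163, CSF1R or TYROBP. The group was selected on measured values, because LYZ, FCER1G, FCGR1A and CD14 were chosen by their lower ratios on these same arrays. Their ratios between the photoperiods are therefore a description, and they support nothing by themselves.

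The study compared the skin of female Arbas Cashmere goats, 2 years old, under a short and a natural photoperiod. Goats of the short photoperiod were outdoors for 7 hours daily and spent the rest of the day in a dark shed at about 0.1 lux, and goats of the natural photoperiod, called long in the sample titles, grazed under natural light. RNA of 1 goat of each group was hybridised to each of 3 sheep arrays, giving 3 goats per group, and the goats on an array came from the same parent. The short photoperiod sample carried Cy5 and the natural one Cy3 on every array, with 0 dye swaps, so that dye and group cannot be told apart. Goat RNA was read with probes designed for sheep, and mismatches between the species were not examined here. With 3 arrays, the precision of each value is limited by their number.

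Fc receptors bind the constant part of antibodies and join antibody recognition to the cells that act on it. The high affinity IgE receptor sits on mast cells and basophils, whereas the IgG receptors are found mainly on macrophages, neutrophils and B cells. The gamma chain FCER1G carries the signal of the IgE receptor and of the high affinity IgG receptor through an activation motif (ITAM). In skin, macrophages and mast cells lie in the dermis and around the hair follicles, and their numbers and state change with the hair cycle.

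A log2 ratio is that of the short over the natural photoperiod after normalization within the array, so that a value below 0 means a lower level under the short photoperiod. Of the 18 member probes, 16 gave a signal well above background in Cy5 and Cy3 on every array, and 0 of the spots carried an outlier flag. The mean ratio was below 0 for 18 of 18 probes, where 51.2% of the 14977 tested probes were below 0. It was 16 of 18 under median centring of the arrays, where 1 of the FCER1G probes and FCGRT were above 0. Median centring shifts each array by 1 value. Unlike the loess fit used for the main ratios, it leaves in any dye difference that varies with brightness. Its values are given to show how far a ratio rests on that dye correction, and not as an equal reading. With loess, the median of the members' mean log2 ratios was -0.47, and that of all tested probes was -0.01. On replicates 1, 2 and 3 the members' median was -0.51, -0.33 and -0.49. In these bulk samples each ratio is relative to the other RNA of the skin. Fewer cells of a type, less RNA per cell and more RNA from other cells cannot be told apart. The paper reported thicker skin and longer, denser follicles under the short photoperiod, and their part in these ratios was not tested.

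On every array 15 of the 18 probes were lower under the short photoperiod, and 21.9% of all tested probes were lower on every array. For 8 of the 18 probes all 3 short photoperiod goats had intensities below all 3 natural photoperiod goats, beside 7.3% of the tested probes. A mean log2 ratio of -1 or less, the 2-fold rule of the study's methods, was met by 1 member, FCGR1A, beside 0.427% of the tested probes. When limma tested all probes together, 0 of the 18 members and 1 probe of the whole array (0.00668%) had a Benjamini-Hochberg adjusted p under 0.05. An unadjusted p under 0.05 was found by limma for 15 members and for 18.5% of the tested probes. The single call of the whole array was a lower one, while median centring called 1013 higher and 872 lower probes (12.6%), among them 4 members, the probes of ITGAM, FCGR2B and lysozyme 2a. A fit of the separate channels called 1 member, FCGR2B, beside 1.08% of the 14868 probes it tested, and limma with trend and robust called 0 members beside 0.00668%. Since the members were chosen by this same contrast, nothing is read from these counts.

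**Figure D1:**
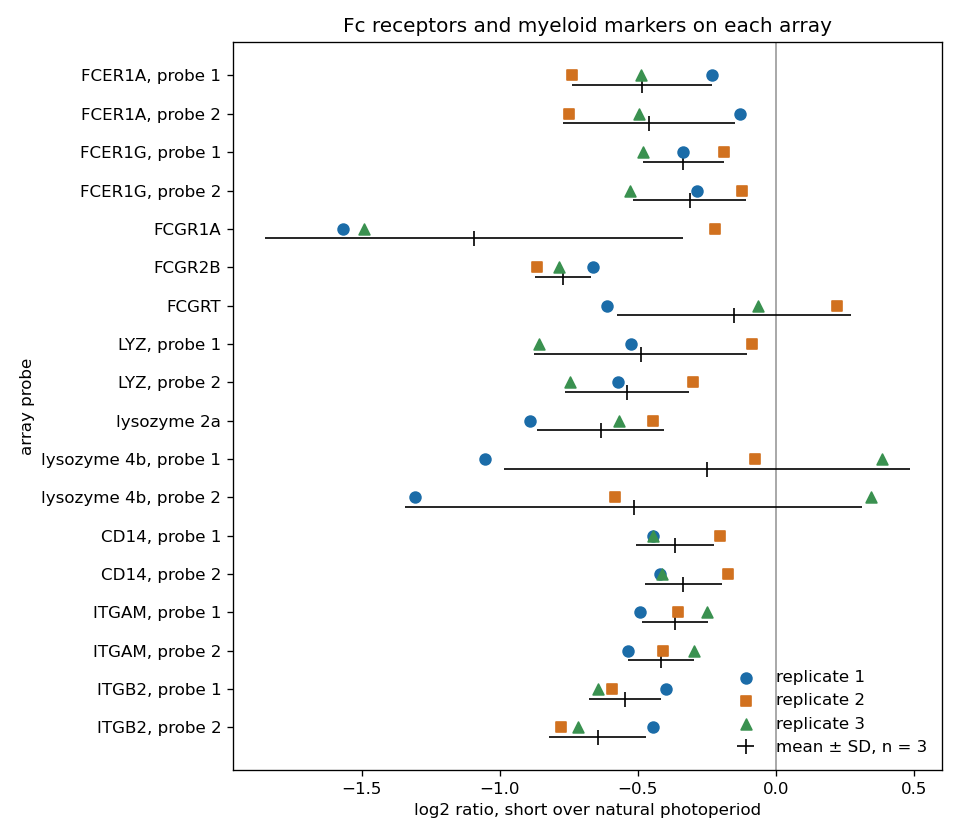
The log2 ratio of short over natural photoperiod (horizontal axis) is plotted for each of the 18 member probes (vertical axis) on replicates 1, 2 and 3, with the mean and SD of the 3 arrays as a black bar. FCGR1A reaches -1.57 and -1.49 on replicates 1 and 3 and is at -0.22 on replicate 2, and under median centring FCGRT and 1 FCER1G probe have means above 0 that are not drawn.

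The alpha chain of the high affinity IgE receptor, FCER1A (NM_001123004), is the subunit that binds IgE. Its normalized log2 intensity, averaged over 2 probes, was 14.41, 13.98 and 14.05 in the short photoperiod goats of replicates 1, 2 and 3. It was 14.59, 14.73 and 14.54 in the natural photoperiod goats of the same replicates. In this average the natural goats lay within a narrow range and all 3 were above the short photoperiod goats, of which the goat of replicate 1 was the closest to them and overlapped in 1 of the 2 probes. The probes gave log2 ratios of -0.23, -0.74 and -0.49 and of -0.13, -0.75 and -0.49 on the 3 arrays, with means of -0.49 ± 0.25 and -0.46 ± 0.31 (SD, n = 3). Under median centring the means shrank to -0.20 and -0.14, and the second probe was at 0.16 on replicate 1. These probes share a run of only 6 of 60 bases, so they read separate stretches of the transcript.

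The gamma chain FCER1G (AJ318335) is needed for the surface expression and signalling of both the IgE receptor and the high affinity IgG receptor. The log2 intensity averaged over its 2 probes was 14.38, 14.24 and 14.10 in the short photoperiod goats. In the natural photoperiod goats it was 14.69, 14.39 and 14.60. The groups did not overlap in this average, but the natural goat of replicate 2 nearly equalled the highest short photoperiod goat, and 1 of the 2 probes overlapped. The log2 ratios were -0.34, -0.19 and -0.48 for one probe and -0.29, -0.12 and -0.53 for the other, with means of -0.34 ± 0.15 and -0.31 ± 0.21 (SD, n = 3), and under median centring these means were 0.03 and -0.05. The direction of FCER1G thus rested on the dye correction by brightness, and without replicate 3 the mean of the other probe was -0.20. These probes share 59 of 60 bases and are not independent readings.

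The high affinity IgG receptor FCGR1A (CD64, NM_001139452) is carried by monocytes and macrophages and takes up antibody-coated particles. It was read by 1 probe, at log2 intensities of 13.75, 13.71 and 13.79 in the short photoperiod goats. The natural photoperiod goats were at 15.32, 13.93 and 15.28. The short photoperiod goats were nearly alike, with an SD of 0.04, whereas the natural goats spread over an SD of 0.79 because the goat of replicate 2 was far below the other natural goats. On the linear scale the normalized intensity was 40867, 15644 and 39788 in the natural goats and 13759, 13420 and 14155 in the short photoperiod goats.

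The log2 ratios of FCGR1A were -1.57, -0.22 and -1.49, with a mean of -1.09 ± 0.76 (SD, n = 3), a fold change of 0.468. Its place past the 2-fold rule rested on replicates 1 and 3, since the mean was -0.86 without replicate 1, -0.90 without replicate 3 and -1.53 without replicate 2. Under median centring it was -0.81, below a 2-fold change. Among all tested probes, 0.254% had a lower mean ratio, and the choice of the members used this value.

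FCGR2B (CD32, NM_001139453) is the inhibitory IgG receptor of B cells, macrophages and mast cells, and restrains activating Fc receptors. Its single probe had log2 intensities of 13.45, 12.88 and 13.12 in the short photoperiod goats. Those of the natural goats were 14.11, 13.74 and 13.90. The groups did not overlap, and both groups ran in the same order over the replicates, highest in replicate 1 and lowest in replicate 2. The ratios were -0.66, -0.86 and -0.79, with a mean of -0.77 ± 0.10 (SD, n = 3), and the mean was -0.65 under median centring. Unlike FCGR1A, its difference was smallest on replicate 1 and largest on replicate 2, which was not tested.

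The neonatal Fc receptor FCGRT (NM_001123403) salvages IgG from breakdown inside endothelial cells, epithelia and macrophages, and so differs in function from the other Fc receptors. Its log2 intensity was 14.31, 14.52 and 14.39 in the short photoperiod goats and 14.92, 14.30 and 14.45 in the natural ones. The groups overlapped, and replicate 2 was higher under the short photoperiod. The ratios of -0.61, 0.22 and -0.07 gave a mean of -0.15 ± 0.42 (SD, n = 3), which is smaller than its spread, and the mean was 0.18 under median centring and 0.08 without replicate 1.

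**Figure D2:**
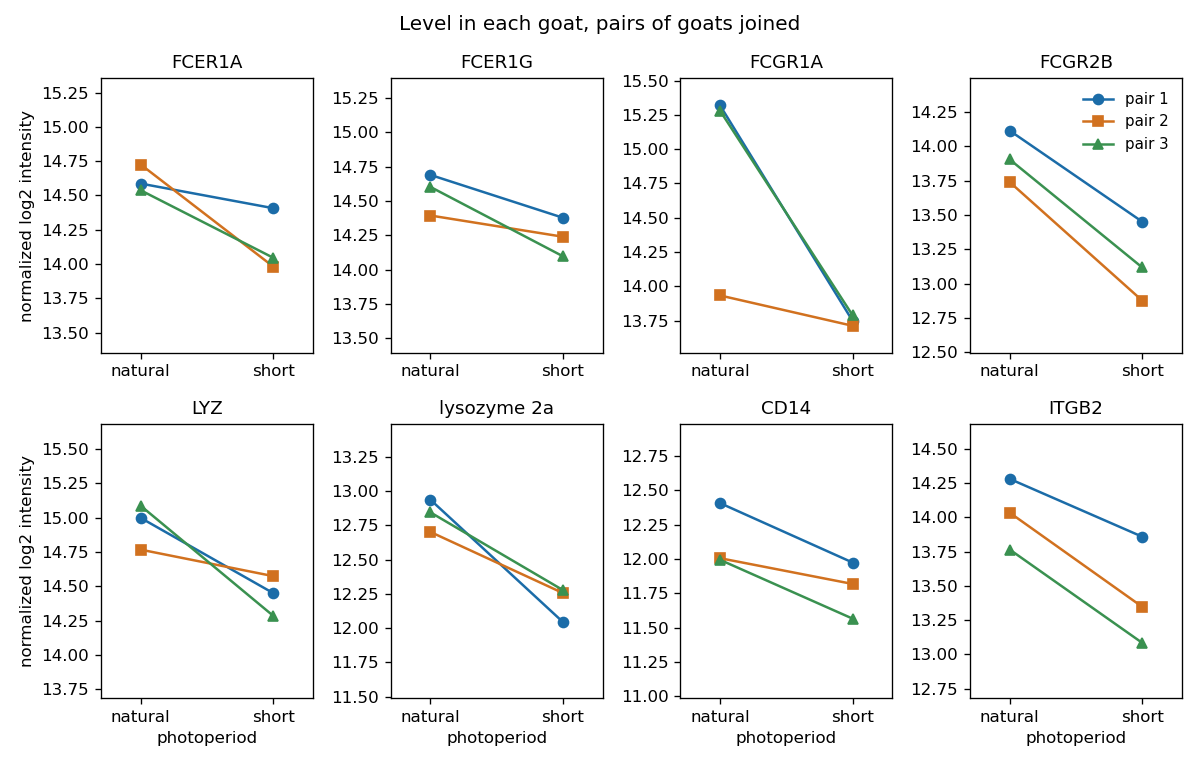
The normalized log2 intensity of 8 genes (vertical axis, 2 units high in every panel) is plotted for the natural and the short photoperiod goat of each replicate, joined by a line, with the probes of a gene averaged. The lines go down in each of these panels, steeply for FCGR1A in 2 of the 3 pairs. These panels leave out FCGRT and lysozyme 4b, which were higher under the short photoperiod on 1 array, at 0.22 on replicate 2 and 0.37 on replicate 3. Under median centring the FCER1G means are 0.03 and -0.05 and its direction is not kept.

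Lysozyme cuts the cell wall of bacteria and is a main secreted product of macrophages, and ruminants carry several lysozyme genes. LYZ (NM_001097647) had log2 intensities of 14.45, 14.57 and 14.28 in the short photoperiod goats, averaged over 2 probes. In the natural goats it had 15.00, 14.77 and 15.09. The groups did not overlap, and the goats of replicate 2 were the nearest to each other. The ratios were -0.52, -0.09 and -0.86 for one probe and -0.57, -0.30 and -0.75 for the other, with means of -0.49 ± 0.39 and -0.54 ± 0.22 (SD, n = 3). Under median centring these means were -0.16 and -0.06, and both probes were above 0 on replicate 2, at 0.24 and 0.20. Without replicate 3 the mean of the first probe was -0.31.

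The LYZ probes overlap by 40 of their 60 bases and are thus not independent readings. Their sequences are given because the difference between the probes on replicate 2, the widest of the 3 arrays at 0.21, arises between overlapping stretches. Under median centring the probes were nearest on replicate 2, at 0.24 and 0.20, and furthest apart on replicate 3, at -0.45 and -0.20. Capitals mark the shared bases.
A_70_P051226: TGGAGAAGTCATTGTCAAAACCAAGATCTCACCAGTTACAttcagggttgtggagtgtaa
A_70_P051227: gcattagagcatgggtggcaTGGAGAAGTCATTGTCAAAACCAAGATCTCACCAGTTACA

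A further record, lysozyme 2a (LOC443321, M32495), was read by 1 probe. Its log2 intensity was 12.04, 12.26 and 12.28 in the short photoperiod goats and 12.94, 12.70 and 12.84 in the natural goats. The groups did not overlap, and the goats within each group were close together. The ratios were -0.89, -0.45 and -0.57, with a mean of -0.63 ± 0.23 (SD, n = 3) that stayed at -0.62 under median centring. Lysozyme 4b (LOC443322, M32498) was dim, and its 2 probes were well above background in Cy5 on 2 of the 3 arrays. Its ratios were -1.06, -0.08 and 0.38 and -1.31, -0.58 and 0.35, so that they changed sign between the arrays. Under median centring both probes were below 0 on every array, with means of -0.64 and -0.90 against -0.25 and -0.51. The sign on replicate 3 thus rested on the dye correction by brightness. The mean of the second probe, -0.51, was -0.12 without replicate 1 and -0.95 without replicate 3. The raw intensities of the first of these probes were 73.1, 167 and 359 in Cy5 and 128, 125 and 195 in Cy3, over backgrounds of 32 to 38 in Cy5 and 25 to 26 in Cy3.

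CD14 (NM_001077209), a receptor of monocytes and macrophages that hands bacterial lipopolysaccharide to toll-like receptors, had mean log2 intensities of 11.97, 11.82 and 11.57 in the short photoperiod goats. The natural goats were at 12.41, 12.01 and 11.99. The groups did not overlap in this average, but the highest short photoperiod goat and the lowest natural goat were nearly equal, and 1 of the 2 probes overlapped. The log2 ratios were -0.45, -0.20 and -0.45 for one probe and -0.42, -0.17 and -0.41 for the other, with means of -0.37 ± 0.14 and -0.33 ± 0.14 (SD, n = 3). These hardly moved under median centring, where they were -0.40 and -0.36.

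The CD14 probes share 59 of 60 bases and differ by no more than 0.04 in log2 ratio on any array, which measures the repeatability of the spots and not that of the goats. Their sequences show the shift by 1 base, with the shared bases in capitals.
A_70_P030286: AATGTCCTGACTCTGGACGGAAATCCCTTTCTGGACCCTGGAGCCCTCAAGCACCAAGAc
A_70_P030287: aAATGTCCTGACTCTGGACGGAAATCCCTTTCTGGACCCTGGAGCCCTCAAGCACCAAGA

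The integrins ITGAM (CD11b, NM_001082593) and ITGB2 (CD18, NM_001009485) form complement receptor 3, with which myeloid cells adhere and take up particles. ITGB2, which all leukocytes carry, had mean log2 intensities of 13.86, 13.35 and 13.08 in the short photoperiod goats. It had 14.28, 14.03 and 13.76 in the natural goats. The groups overlapped, because both goats of replicate 1 were high and both of replicate 3 low, yet every short photoperiod goat was below its own partner. The ratios were -0.40, -0.60 and -0.65 and -0.44, -0.78 and -0.72 for its 2 probes, with means of -0.55 ± 0.13 and -0.65 ± 0.18 (SD, n = 3), and -0.42 and -0.45 under median centring.

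ITGAM was much nearer to background, with raw intensities of 173 to 466 in Cy5 and 160 to 373 in Cy3 over its 2 probes. Its mean log2 intensity was 8.16, 7.97 and 8.35 in the short photoperiod goats and 8.67, 8.35 and 8.63 in the natural goats. The groups overlapped slightly in this average, in that the short photoperiod goat of replicate 3 equalled the natural goat of replicate 2. Each of the 2 probes also overlapped when read singly. The ratios were -0.49, -0.35 and -0.25 and -0.54, -0.41 and -0.30, with means of -0.37 ± 0.12 and -0.41 ± 0.12 (SD, n = 3), from probes that share 40 of 60 bases. Median centring made the means larger, -0.66 for one probe and -0.65 for the other.

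Before normalization Cy5 was the brighter channel for most members, on 14, 17 and 17 of the 18 probes on replicates 1, 2 and 3. The same was true of the arrays as a whole, with median raw Cy5 intensities of 4587, 6436 and 7120 beside Cy3 intensities of 2688, 3668 and 3911. The members' ratios below 0 therefore rest on the correction of the dyes, and they are relative to the other probes of similar brightness on the same array.

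The members did not share 1 pattern over the replicates. With the probes of a gene averaged, the difference, taken without its sign, was smallest on replicate 2 for 6 of the 11 genes, namely LYZ, lysozyme 2a, lysozyme 4b, FCER1G, FCGR1A and CD14. It was smallest on replicate 1 for 3 genes, FCER1A, FCGR2B and ITGB2, and on replicate 3 for 2 genes, ITGAM and FCGRT. These counts depended on the dye correction by brightness. With median centring each FCER1G probe differed least on replicate 1, at -0.01 and -0.07, and each lysozyme 4b probe on replicate 3, at -0.06 and -0.20. Over the 16 members well above background, the mean log2 intensity was 13.00, 12.83 and 12.78 in the short photoperiod goats. It was 13.53, 13.20 and 13.36 in the natural photoperiod goats, so that every natural goat was above every short photoperiod goat. The same mean over all tested probes lay between 11.67 and 11.69 in the 6 goats. Normalization of the channels brings these means together by itself, so nothing is read from their likeness.

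The 5 probes most like the mean of LYZ, FCER1G, FCGR1A and CD14 over the 6 goats were sought among 1405 probes with a gene symbol. Their Pearson correlations with the 4 members were 0.986 for HEXA, 0.981 for BCAT2, 0.978 for CTLA-4, 0.974 for TLR6 and 0.973 for FABP5. These are a description over 6 intensities that share arrays in pairs, and 28 of the 1405 probes had a correlation above 0.9. The 4 members were chosen by lower ratios on these arrays, so probes with the same contrast rank high by construction. HEXA, a lysosomal hexosaminidase, had ratios of -0.16, -0.07 and -0.26, and TLR6, a toll-like receptor of myeloid cells, had -0.20, -0.12 and -0.32. CTLA-4, a receptor of T cells, had -0.80, -0.34 and -0.94. Under median centring the means of HEXA, BCAT2 and FABP5 were above 0, at 0.15, 0.01 and 0.45, and those of CTLA-4 and TLR6 were -0.82 and -0.41.

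Of 25 listed genes that carry Fc receptor and ITAM signals inside the cell, 2 were found on the array, with 5 probes well above background. Limma called 0 of these probes, and 2 had an unadjusted p under 0.05, beside 18.5% of all tested probes. LAT2, an adaptor used by the IgE receptor, was higher on each array, with 0.79, 1.27 and 1.10 for its probe with the larger mean, 1.05 ± 0.24 (SD, n = 3). The GTPase RAC1 had means of 0.15, -0.03 and -0.07, which under median centring were 0.78, 0.08 and 0.02. LAT2 thus differed in sign from FCER1A and FCER1G on all 3 arrays, but this depended on the dye correction by brightness. Under median centring both FCER1G probes were above 0 on replicate 2, at 0.18 and 0.11, and 1 of them had a mean of 0.03. One FCER1A probe was then at 0.16 on replicate 1, and the LAT2 means were 0.73 and 0.90.

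The rule names TYROBP, an ITAM adaptor of myeloid cells, and found no probe of that name. A record described as DAP12, another name of TYROBP, was singled out after its values were seen. Its 2 probes had log2 ratios of -0.29, -0.38 and -0.65 and of -0.25, -0.34 and -0.59, with means of -0.44 ± 0.19 and -0.40 ± 0.18 (SD, n = 3). Under median centring these means were -0.51 and -0.47.

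Other monocyte and macrophage genes stood beside the members. Of 64 listed symbols 19 were on the array, and 33 of their probes were measured above background throughout. Their median was -0.40, with 27 means below 0 and 6 above. On every array 19 of the 33 probes were lower, beside 21.9% of all tested probes, and 4 were higher. Limma called 0 of the 33 probes, with 19 unadjusted p-values under 0.05, beside 18.5% of all tested probes. Under median centring 24 of the means were below 0 with a median of -0.36. The summed normalized intensity of the list was 315952, 291461 and 282852 in the short photoperiod goats and 423059, 379162 and 440280 in the natural goats. CYBA, a subunit of the phagocyte oxidase with the highest intensity of the list, had -0.36, -0.70 and -0.60 but a mean of 0.23 under median centring. The lysosomal protease CTSS had -1.38, -0.39 and -1.19, smallest on replicate 2 like LYZ and FCGR1A, and its mean of -0.99 shrank to -0.24 under median centring.

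The complement receptor C5aR had the most negative mean of that list, -1.06 ± 0.26 (SD, n = 3), with -1.27, -0.77 and -1.14. The list was chosen with earlier results known, and the study had picked C5aR and TLR7 from these arrays, as it had FCGR1A and LAT2.

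Other mast cell and basophil genes were few on the array. Of 23 listed symbols 6 were on the array, and 8 probes were well above background, with a median of -0.06. Of these, 4 had means below 0 and 1 was lower on every array, beside 21.9% of all tested probes. Limma called 0, with 0 unadjusted p-values under 0.05, beside 18.5% of all tested probes. Under median centring 7 of the 8 means were below 0 with a median of -0.25, beside FCER1A means of -0.20 and -0.14. The summed intensity of the list was 5517, 8043 and 7768 in the short photoperiod goats and 7246, 8140 and 7058 in the natural goats, which overlap.

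MS4A2, the beta chain of the IgE receptor, had the most negative mean of the mast cell list, with log2 ratios of -1.49, 0.10 and -0.05. It was lower on replicate 1, where FCER1A differed least, and near 0 where FCER1A was at -0.74 and -0.49. KITLG, the growth factor of mast cells that skin cells make, had the most positive mean, with -0.36, 0.15 and 0.53.

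Mast cell proteases were singled out by their descriptions after the values were seen. MCP-3 had ratios of -0.55, -0.76 and 0.19 and of -0.87, -0.80 and -0.22 for its 2 probes, and TRYPTASE-1 had -0.41, 0.03 and 0.53 and -0.26, 0.17 and 0.71. MCP-4 was lower on replicate 2 alone, at -1.54 and -1.50, against 0.08 and 0.14 on replicate 1 and 0.33 and 0.34 on replicate 3. The part of mast cell numbers in the FCER1A values was not tested.

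**Figure D3:**
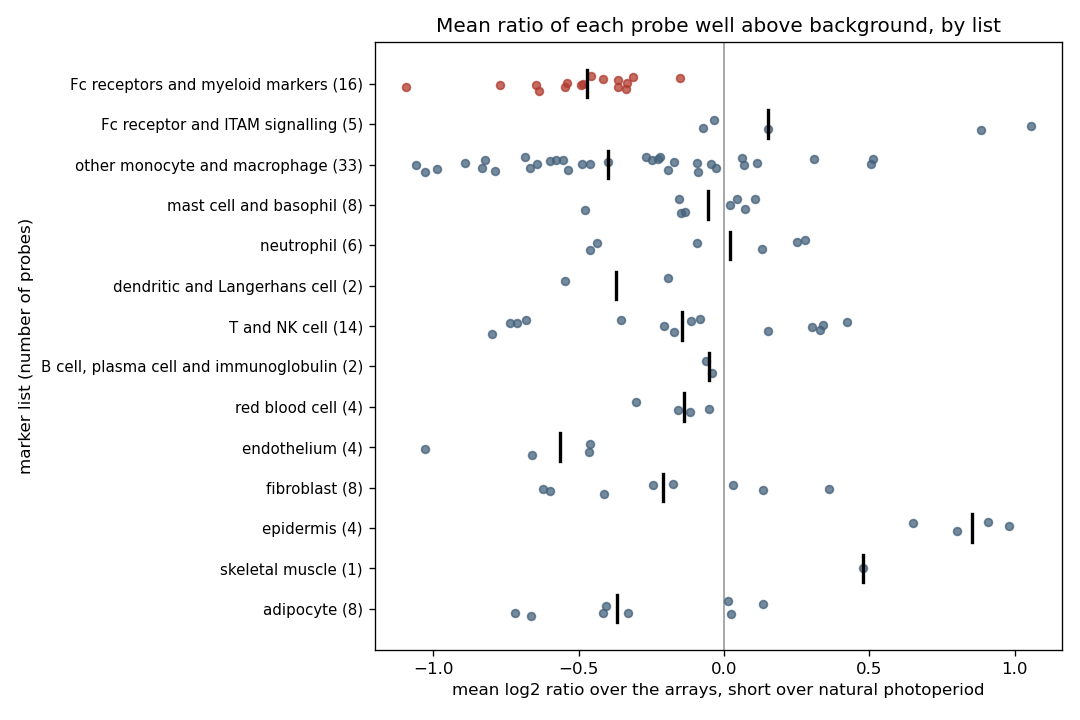
Each point is the mean log2 ratio over 3 arrays, or over 2 for VIM of the fibroblast list (horizontal axis), of 1 probe well above background, by list (vertical axis, number of probes in brackets), with the list's median as a black line and points spread vertically for sight only. The 16 member probes lie between -1.09 and -0.15 and the 4 epidermis probes between 0.65 and 0.98, and under median centring the median of the fibroblast list changes sign to 0.53 and that of the neutrophil list to -0.22.

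The antibodies that these receptors bind were also on the array, and their records were singled out after the values were seen. The IgG1 heavy chain (X69797) had log2 ratios of 1.98, 0.90 and -1.15, and the lambda light chain constant region (AY734681) had 1.72, 0.90 and -1.06. The IgE heavy chain (M84356), ligand of FCER1A, had -0.01, -0.01 and -0.26. Thus IgG1 was higher on replicates 1 and 2 and lower on replicate 3, whereas FCGR1A and FCGR2B were lower on all 3 arrays.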

How the data were processed

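The 3 arrays lay on 1 slide. The authors' Feature Extraction output holds, per spot and dye, an unnormalized mean intensity, a median local background and flags. The deposited log10 ratio comes from signals that the authors background-subtracted and dye-normalized by lowess. The authors' value table holds log2 ratios of Cy5 over Cy3, which equalled the log2 ratio of these signals to within 0.001 for at least 99.96% of single-spot probes, with medians of 0.0085, 0.0012 and 0.0179.

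In R 4.3.3 with limma 3.58.1, normexp (offset 50) was followed by loess within each array with controls at weight 0. Outlier-flagged spots were dropped and spots of 1 probe averaged. The 14977 probes with at least 2 arrays were tested against 0 with lmFit and eBayes, in code tested on simulated data. Each ratio is paired, since the goats of an array shared a parent. Intensities of single goats come from the channels after Aquantile normalization and are open to dye bias.

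The members and lists were chosen with earlier results of these data known. Every member is named, with all array values for those measured throughout. Each list gives the 2 probes with the highest mean intensity and those with the most negative and most positive mean ratio, and 5 probes most like the 4 listed members are named. One gene that this rule names is not reported here. Genes are named as on the array, and 6 of the 11 member names were symbols in the RefSeq table of the goat assembly ARS1.2. Figures were drawn with matplotlib 3.10.9.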

Additional observations from a re-analysis of the deposited data

How the results depend on the processing

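The alternatives were median centring, no background correction, normexp with offset 0, Feature Extraction's own log ratio, the authors' value table, a filter on dim probes, outlier spots retained, each array left out, the brightest probe of each gene, the separate channels and eBayes with trend and robust. Averaging the probes of each gene was chosen after seeing the data. The median log2 ratio of the members, -0.47, lay between -0.53 and -0.41 under all of these that give one, and without 1 array between -0.46 and -0.41. The number of members at least 2-fold lower, 1, was 0 under median centring and 2 with Feature Extraction's own log ratio and with the authors' value table, where lysozyme 4b was the other one, and 0 to 1 without 1 array. Members lower on every array were 15 of 18, 12 under median centring, 9 of 11 with the brightest probe of each gene and 9 of 11 with the probes averaged, which follows from counting genes, and 15 to 17 without 1 array. Limma's 1 call on the whole array became 1885 under median centring, 5 with Feature Extraction's own log ratio, 14 with the value table, 160 with the separate channels and 0 without any 1 array. The cause was not tested.

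The mean changed sign for FCER1G (A_70_P002706), to 0.026, and FCGRT, to 0.18, under median centring. Without 1 array the mean lay between -0.34 and 0.078 for FCGRT and between -0.57 and 0.15 for lysozyme 4b (A_70_P016808), above 0 without replicate 1. Of the other values of single members, 159 moved by less than their SD and 15 by more, 8 of these under median centring. Many of the 159 could not have moved by more. Leaving out 1 array cannot shift a mean over so few arrays by its SD. The filter on dim probes left the ratios of the members it kept unchanged. Retaining outlier spots changed no member ratio, because no member spot carried a flag. The count of 159 is therefore no measure of how stable the ratios are. The median of all tested probes lay between -0.01 and 0.01 in each setting fitted to the ratios. Normalization centres the ratios near 0 in each of them, so nothing is read from this range. No separate replicate block was fitted, because each ratio already compares a pair of goats. The dim probes of ITGAM and lysozyme 4b limit what their ratios can show.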

Other observations

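Markers of other cells in the skin were counted in the same way, over probes well above background, and limma called 0 of them in each list. The unadjusted p was under 0.05 for 5 of 14 T and NK cell probes and 3 of 4 endothelium probes. It was so for 4 of 4 epidermis, 3 of 8 fibroblast, 3 of 8 adipocyte and 2 of 6 neutrophil probes. The 1 skeletal muscle probe was also under it. The counts were 0 of 2 dendritic, 0 of 2 B cell and 0 of 4 red blood cell probes. Among all tested probes the share was 18.5%. The part of these cells in the ratios of the Fc receptors was not tested.

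Among all tested probes 21.9% were lower on every array. T and NK cell genes had 9 of 14 means below 0, with a median of -0.14, and 5 probes lower on every array. The T cell receptor subunits CD3G and CD3E had the highest intensities, with log2 ratios of -0.71, -0.54 and -0.79 and of -0.32, -0.20 and -0.54. CD3D had the most negative mean, -0.80, and GNLY, a granule protein of cytotoxic cells, the most positive, 0.42. Of 12 listed endothelium symbols only 2 were on the array, the selectins SELE and SELP, with 4 of 4 probes lower on every array and a median of -0.56. SELE, which the study had picked from these arrays and through which leukocytes leave the blood, had -1.17, -1.15 and -0.77, and SELP had -0.67, -0.33 and -0.38. The summed intensity of this list was 5346, 6586 and 6602 in the short photoperiod goats and 10845, 12377 and 10552 in the natural goats. FLT-1, a growth factor receptor of endothelium outside the list that was added after its values were seen, went the other way, with 1.28, 0.44 and 0.92 and a mean of 0.63 under median centring.

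Epidermis genes, 3 of 15 listed symbols, had the opposite sign, with a median of 0.85 and 1.14 under median centring. On every array 4 of 4 probes were higher, beside 3203 of the 14977 tested probes. KRT14, a keratin of basal cells, had 1.24, 0.62 and 0.09, SFN had 0.87, 0.64 and 0.89 and TP63, another pick of the study, had 1.32, 1.23 and 0.39. The summed intensity was 153665, 143380 and 129551 in the short photoperiod goats and 72853, 92575 and 98012 in the natural goats. The 8 fibroblast probes had a median of -0.21 and 0.53 under median centring, with VIM, measured on 2 arrays because its spots had an outlier flag on replicate 3, at -0.24 and -0.18 and under median centring at 0.73 and 0.75, COL3A1 at -0.62 and BGN at 0.36. The 8 adipocyte probes had a median of -0.37, with PPARG at -0.41 and -0.06 under median centring, LPL at -0.72 and SCD at -0.39, -0.33 and 1.12 on the 3 arrays.

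The 6 neutrophil probes had a median of 0.02, and -0.22 under median centring. IL8 had 0.85, 0.05 and -1.17 in its brightest probe and a mean of -0.46 in the other, and the antimicrobial peptide BAC5 had a mean of 0.28, which was -0.11 under median centring. CD1D alone stood for dendritic and Langerhans cells, with means of -0.55 and -0.19 and ratios between -1.47 and 0.59. CR2 alone stood for B cells, with -0.04 and -0.06, and of the pan-leukocyte list 0 probes were well above background on all arrays. The 4 red blood cell probes had a median of -0.14. HBB had 0.06, -2.11 and 1.15, and AHSP had a mean of -0.05. MYLPF, the muscle gene found, had 0.79, 0.38 and 0.26.

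Further records whose descriptions name macrophages were singled out after the values were seen. CLEC4E, a macrophage lectin that signals through FCER1G, had log2 ratios of -1.67, -1.10 and -0.10 and of -1.71, -1.02 and -0.07 for its 2 probes. Macrophage expressed gene 1 (TC69763) had -0.45, -0.49 and -1.21. Macrophage-capping protein (TC56798) had -0.26, -0.55 and -0.33, and a mean of 0.48 under median centring. The IgM heavy chain had -0.33, 0.11 and -0.91 and -0.37, -0.27 and -0.92 for its 2 probes, and IgA had 1.57, -1.41 and -0.53. CLEC4E was near 0 on replicate 3, where FCGR1A was at -1.49, and at -1.10 on replicate 2, where FCGR1A was at -0.22.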
